A study of Homo sapiens with 47 samples.

Results

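H3K4me3Q5ser, the histone H3 tail that carries trimethylated lysine and serotonin on the neighbouring glutamine, was compared directly between PC3 cells overexpressing DDC and PC3 cells overexpressing SLC6A4. The comparison took every H3K4me3Q5ser ChIP library of these lines, 3 of DDC and 3 of SLC6A4 cells, which are 6 of the 47 samples of the series, and every one of the 19535 regions in the deposited table, of which 19527 had enough read pairs to be tested. PC3 is an established human prostate cancer cell line, and each line was transduced with its own construct: DDC, SLC6A4 or, as the third line shown beside them, an empty vector. The series title places the work in histone serotonylation and the lineage plasticity of neuroendocrine prostate cancer. H3K4me3 ChIP and RNA were measured in 3 libraries of each line, and input in DDC and empty-vector cells is used here. The labels name replicates but not separate transductions or cultures, so every p-value below measures the spread between these libraries only, and the overexpressed gene and the single culture or preparation that carries it cannot be told apart.

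Serotonin can be joined to the glutamine next to lysine 4 of histone H3 by the transglutaminase TGM2, and the doubly modified tail lies at the promoters of active genes, as H3K4me3 alone does. DDC removes a carboxyl group from aromatic amino acids and so forms serotonin and dopamine inside the cell. SLC6A4 is the plasma membrane transporter that carries serotonin into the cell.

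The sequences that open the comparison were chosen because the line difference ran with the base composition of a region. The first pair is the RefSeq promoter (GRCh38.p14, from 250 bases before to 50 after the start) of the promoter regions with the smallest p-value above and with 1 of the 10 smallest p-values below in DDC cells: EPC1 at chr10:32378720-32379019 on the minus strand, 53.0% GC with 9 CG dinucleotides, and CCNL2 at chr1:1399286-1399585 on the minus strand, 73.7% GC with 47. The second pair is the promoter of a gene whose mark and RNA were both higher in DDC cells, HEPHL1 at chr11:94021104-94021403 on the plus strand (53.3% GC, 7 CG dinucleotides), and of one whose mark and RNA were both lower, LAD1 at chr1:201399275-201399574 on the minus strand (73.3% GC, 38). The third pair is the central 300 bases (GRCh38, plus strand) of the regions with the largest fold in each direction among those of mean log2 CPM 3 or more: the region near EPC1, chr10:32368910-32369209 (39.0% GC, 2 CG dinucleotides), and the region at the start of the noncoding gene ENSG00000289615, chr2:72145001-72145300 (65.3% GC, 21). Capitals mark CG dinucleotides.
EPC1: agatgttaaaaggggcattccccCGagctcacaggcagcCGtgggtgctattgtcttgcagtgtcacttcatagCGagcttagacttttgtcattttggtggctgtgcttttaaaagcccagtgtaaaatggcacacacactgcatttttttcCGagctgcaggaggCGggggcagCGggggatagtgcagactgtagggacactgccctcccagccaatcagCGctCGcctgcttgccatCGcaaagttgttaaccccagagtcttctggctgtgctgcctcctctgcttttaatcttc
CCNL2: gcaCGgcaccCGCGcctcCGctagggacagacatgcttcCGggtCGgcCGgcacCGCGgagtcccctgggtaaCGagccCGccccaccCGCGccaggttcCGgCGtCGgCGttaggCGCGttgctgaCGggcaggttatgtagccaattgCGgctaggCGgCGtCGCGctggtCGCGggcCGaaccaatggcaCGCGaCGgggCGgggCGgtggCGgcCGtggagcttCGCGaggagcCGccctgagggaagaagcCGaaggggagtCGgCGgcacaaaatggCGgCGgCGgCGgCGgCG
HEPHL1: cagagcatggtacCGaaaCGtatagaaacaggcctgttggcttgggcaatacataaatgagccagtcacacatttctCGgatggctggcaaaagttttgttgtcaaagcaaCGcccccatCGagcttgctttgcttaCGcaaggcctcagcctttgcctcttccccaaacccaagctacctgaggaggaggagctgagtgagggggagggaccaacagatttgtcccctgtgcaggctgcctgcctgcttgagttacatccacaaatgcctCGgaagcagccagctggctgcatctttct
LAD1: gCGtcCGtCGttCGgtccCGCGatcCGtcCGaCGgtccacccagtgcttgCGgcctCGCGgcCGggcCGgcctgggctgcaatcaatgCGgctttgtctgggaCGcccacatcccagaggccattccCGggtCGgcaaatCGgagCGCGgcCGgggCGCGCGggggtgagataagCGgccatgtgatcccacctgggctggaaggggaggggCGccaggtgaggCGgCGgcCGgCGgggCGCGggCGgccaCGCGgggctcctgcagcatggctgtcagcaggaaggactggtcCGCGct
near EPC1: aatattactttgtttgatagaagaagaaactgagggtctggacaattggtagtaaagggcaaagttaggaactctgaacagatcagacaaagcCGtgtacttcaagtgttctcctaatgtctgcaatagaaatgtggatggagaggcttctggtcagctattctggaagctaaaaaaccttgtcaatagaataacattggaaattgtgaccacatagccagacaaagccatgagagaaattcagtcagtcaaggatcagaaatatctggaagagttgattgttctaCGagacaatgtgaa
ENSG00000289615: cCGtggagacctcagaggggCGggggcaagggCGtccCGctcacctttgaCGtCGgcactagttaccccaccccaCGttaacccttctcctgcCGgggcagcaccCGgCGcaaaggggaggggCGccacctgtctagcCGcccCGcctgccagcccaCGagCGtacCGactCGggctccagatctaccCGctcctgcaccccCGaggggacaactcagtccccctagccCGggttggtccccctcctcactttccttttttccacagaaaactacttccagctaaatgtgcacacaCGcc

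In RefSeq promoters matched by symbol to a tested region the same order appeared: the 2485 promoters of genes at regions called higher in DDC cells held a median of 24 CG dinucleotides in 300 bases, against 30 in the 4013 called lower and 14 in all 35116 promoters of the RefSeq table. The first listed promoter of a matched gene was taken, without a check that it lies in the region. The set of all promoters was not reduced in this way or limited to genes with a region, so it is not a like baseline. The GC box GGGCGG, read on both strands with overlaps allowed, was found in 67.6% of the promoters called higher, in 76.9% of those called lower and in 45.0% of all promoters. For calls made with offsets that follow GC content (defined with the GC gradient), the medians were 25 in 1603 promoters called higher and 28 in 4055 called lower, and the GC box was in 73.7% and 73.0% of them. These are descriptions of the windows, and no factor was measured there.

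The H3K4me3Q5ser libraries held 13.5 to 16.7 M read pairs in regions in DDC cells, 20 to 24.8 M in SLC6A4 cells and 24.1 to 24.4 M in empty-vector cells. The H3K4me3 libraries of DDC and SLC6A4 cells held 3.75 to 5.81 M. Libraries of a line differed by little more than counting noise, with a variance between library pairs of 0.992 to 1.14 times the sampling variance, whereas DDC and SLC6A4 libraries differed by 24.3 to 26.7 times. SLC6A4 libraries 1 and 2 differed by no more than the sampling noise (ratio 0.992, chi-square p = 0.78), so they may be 1 sample. SLC6A4 library 3 differed from both beyond that noise (ratios 1.07 and 1.08). Some other pairs also did not pass it, such as empty-vector libraries 1 and 3 of H3K4me3Q5ser (ratio 1.01, chi-square p = 0.0693). The values and tests below keep SLC6A4 libraries 1 and 2 separate. With their reads summed into 1 library, so that they were counted as 1 sample, 14926 regions were called. The overexpressed genes checked the labels in the RNA: DDC had 23.9 to 30.8 normalised reads in DDC cells, 0 to 2.79 in SLC6A4 cells and 0 to 0.864 in empty-vector cells, and SLC6A4 had 0 to 1.1 in DDC cells, 87.4 to 129.5 in SLC6A4 cells and 0 to 0.864 in empty-vector cells. A marked promoter region was present for 8 of 8 genes that PC3 cells are known to use, for 1 of 5 luminal androgen-programme genes, for 1 of 8 neuroendocrine genes (FOXA2) and for 1 of 9 genes of other cell types (COL1A1).

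H3K4me3Q5ser differed between DDC and SLC6A4 cells over most of its regions, but mostly by less than 2-fold. By edgeR's quasi-likelihood test with Benjamini-Hochberg adjustment, 14995 of the 19527 regions were called (76.8%), 7422 of them higher in DDC cells (38.0%) and 7573 lower (38.8%). A difference of at least 2-fold was found in 1042 regions (5.34%), 593 of them higher (3.04%) and 449 lower (2.3%). The 3 libraries of one line lay wholly above those of the other in 15078 regions (77.2%). Since libraries of a line agreed almost to the counting noise (a coefficient of variation of 0.988% beyond it), very small differences passed, and the size of a difference is therefore given beside each call.

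The direction of the difference followed the GC content of the region. In the lowest of 8 bins of 2434 regions each, at 19.4% to 39.2% GC, the median log2 fold change was 0.66, 85.9% of regions were called higher in DDC cells and 1.6% lower. In the highest bin, at 57.5% to 95.9% GC, the median was -0.62, and 0.945% were called higher and 84.6% lower. Each bin between them lay below the one before it, at 0.32, 0.17, 0.05, -0.06, -0.19 and -0.36. Of the regions 2-fold higher in DDC cells, 470 lay in the lowest bin, and of those 2-fold lower, 363 lay in the highest. Over 19472 regions the correlation of the log2 fold change with GC content was -0.749 (Pearson). Those regions share the same 6 libraries and differ in length and level.

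The H3K4me3 ChIP showed nearly the same gradient, with medians of 0.58 in the lowest and -0.64 in the highest GC bin and a correlation of -0.772 over 18797 regions. The labels do not say whether this ChIP leaves out tails that also carry serotonin. Set against the empty-vector libraries, which both lines share here, H3K4me3Q5ser of DDC cells had medians of -0.17 in the lowest and -0.04 in the highest GC bin, and H3K4me3Q5ser of SLC6A4 cells had medians of -0.89 and 0.58. The wide swing along GC was thus in the SLC6A4 libraries relative to the empty vector, and the narrow one in the DDC libraries. Input of DDC over empty-vector cells was called in 1135 of 18025 regions (6.3%), and its log2 fold change had a correlation of 0.23 with GC content over 17989 regions. Input of SLC6A4 cells is not analysed here, since the counts over regions hold no columns of it. Whether the GC gradient belongs to the SLC6A4 cells or to the preparation of their libraries was not tested. Log2 fold changes of regions below are therefore given from the plain fit and from a fit whose offsets follow GC content in each library, chosen after seeing the data. With those GC offsets 11958 regions were called (61.2%), 5030 higher in DDC cells (25.8%) and 6928 lower (35.5%), and 198 reached 2-fold (1.01%). With offsets that followed GC content and then mean level, 11525 were called, 3290 higher and 8235 lower.

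**Figure D1:**
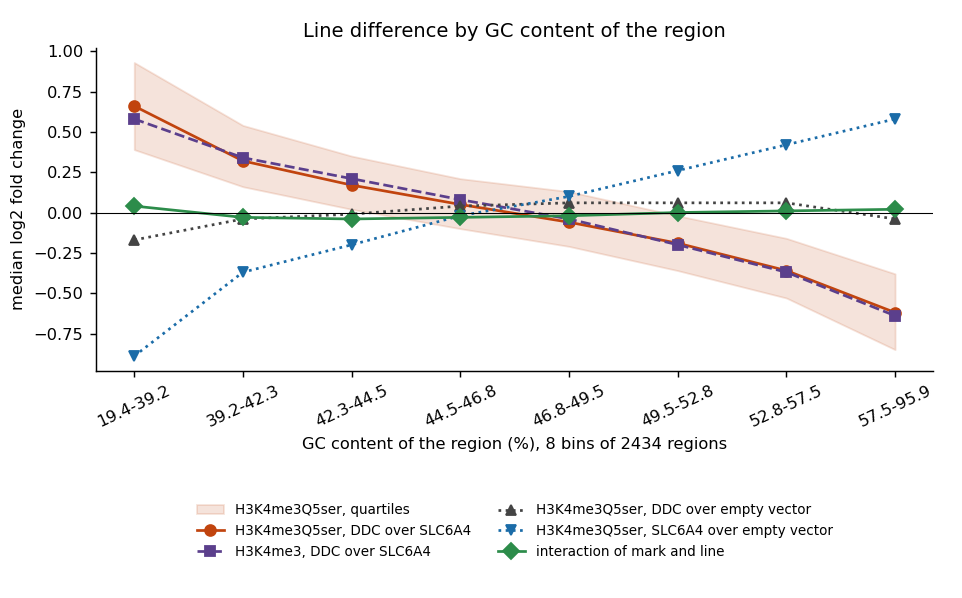
Median log2 fold change (vertical axis) of regions in 8 bins of GC content (horizontal axis, percent, 2434 regions a bin). The band spans the quartiles of H3K4me3Q5ser, DDC over SLC6A4. H3K4me3Q5ser and H3K4me3 of DDC over SLC6A4 both run down the GC scale, from 0.66 and 0.58 at its low end to -0.62 and -0.64 at its high end, SLC6A4 over empty vector runs up from -0.89 to 0.58, and the interaction of mark and line stays between -0.04 and 0.04.

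Promoters and distal regions took opposite sides. Of 10114 regions within 1000 bp of the start of a protein-coding gene, 29.7% were called higher in DDC cells and 51.6% lower, with a median log2 fold change of -0.10 (-0.08 with GC offsets). Of 7434 regions with no annotated start within 1000 bp, 50.7% were called higher and 20.9% lower, with a median of 0.27 (0.12 with GC offsets). The distal regions were shorter (median 1255 bp, against 7175 bp at promoters) and weaker, and with offsets that also follow the mean level of a region their median was -0.06, against -0.10 at promoters. Regions 2-fold higher in DDC cells were nearly all distal: 538 distal regions and 15 promoters, the rest at other annotated starts. Regions 2-fold lower were 134 distal regions and 272 promoters. The 7088 regions without a listed H3K4me3 peak had a median of 0.12, against -0.03 in the 12439 with one, and with offsets on GC content and mean level the medians were -0.08 and -0.09.

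Among promoters higher in DDC cells the smallest adjusted p belonged to EPC1, a subunit of the NuA4/TIP60 histone acetyltransferase complex. Its region, chr10:32372016-32382505, carried 421, 409.6 and 417 counts per M (CPM) in the DDC libraries, against 200.3, 199.7 and 205 CPM in the SLC6A4 libraries, and 499, 508 and 487 CPM in the empty-vector libraries. The DDC libraries lay far above the SLC6A4 libraries and below the empty-vector libraries, and no group overlapped another. The log2 fold change was 1.04 (SE 0.017, adjusted p = 4.8e-71), and 0.39 with GC offsets. The AT-rich region beside it, chr10:32367738-32370381, centred 9.74 kb from the EPC1 start, had the largest rise among regions of mean log2 CPM 3 or more, with 23.2, 22.4 and 22.4 CPM in DDC cells, 7.82, 6.90 and 7.73 CPM in SLC6A4 cells and 20.6, 24.9 and 21.2 CPM in empty-vector cells. Its log2 fold change was 1.60 (SE 0.075, adjusted p = 9.7e-36), and 0.97 with GC offsets. DDC cells were near the empty-vector level in this region and SLC6A4 cells were low. EPC1 RNA did not pass the test (log2 0.28, adjusted p = 0.25).

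SEC24C, a cargo-binding subunit of the COPII vesicle coat, showed how small a difference could pass. Its broad region, chr10:73720981-73757096, had 1143, 1131 and 1138 CPM in DDC cells, against 974, 963 and 955 CPM in SLC6A4 cells and 1064, 1080.2 and 1069 CPM in empty-vector cells. The empty-vector libraries lay between the lines, and no group overlapped another. The log2 fold change was 0.24 (SE 0.0048, adjusted p = 1.4e-64), it was 0.17 with GC offsets, and SEC24C RNA was higher by 0.39 (adjusted p = 0.024). ADGRF1, an adhesion G protein-coupled receptor, had 137, 134 and 130.4 CPM in DDC cells, 67.7, 67.8 and 67.5 CPM in SLC6A4 cells and 131, 140.1 and 132 CPM in empty-vector cells. DDC and empty-vector libraries overlapped, and the SLC6A4 libraries were the low ones. ADGRF1 rose by 0.98 (0.46 with GC offsets) and its RNA by 0.61 (adjusted p = 7.5e-05). SUCO, PSMC6 (a proteasome ATPase), ZFYVE26, ADK (adenosine kinase) and SOCS4 (a suppressor of cytokine signalling) also rose, by 0.57, 0.39, 0.52, 0.31 and 0.56, and their values with GC offsets were 0.05, 0.04, 0.16, 0.05 and 0.07. TOGARAM1 had 0.59 and, with GC offsets, -0.01. NRP1, a co-receptor for semaphorins and VEGF, had 1286, 1270.5 and 1284 CPM in DDC cells, against 1170.3, 1156 and 1139 CPM in SLC6A4 cells, and its sign turned from 0.15 to -0.12 with GC offsets although NRP1 RNA was higher by 0.57 (adjusted p = 1.7e-06).

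The promoters lower in DDC cells with the smallest p-values lay in broad, gene-dense, GC-rich domains that hold several starts each, so a value belongs to the domain rather than to 1 gene. Of these 10 domains, 5 lay between positions 143806551 and 144807319 of chromosome 8 and carry VPS28 (ESCRT-I), CYC1 (cytochrome c1), LRRC14, SCRIB (a polarity scaffold) and RPL8 (a ribosomal protein), with neighbours. The VPS28 domain, 64458 bp at 60.6% GC, had 704, 711 and 706 CPM in DDC cells, against 1057, 1066 and 1052 CPM in SLC6A4 cells and 643, 641 and 646 CPM in empty-vector cells. Here DDC was close to the empty vector, SLC6A4 was the high line, and the groups did not overlap. VPS28 fell by 0.58 on the log2 scale (SE 0.0058, adjusted p = 3e-90) and fell by 0.03 with GC offsets. CYC1, LRRC14, SCRIB and RPL8 fell by 0.50, 0.72, 0.87 and 0.45, and by 0.06, 0.04, 0.30 and 0.18 with GC offsets. CCNL2, a cyclin that takes part in splicing and shares its domain with MRPL20, kept more of its difference: it had 437, 437 and 441 CPM in DDC cells, 653, 647 and 650.0 CPM in SLC6A4 cells and 363, 364 and 359 CPM in empty-vector cells, and fell by 0.57 (adjusted p = 6e-68) and fell by 0.35 with GC offsets. C1orf35, PHF13, RFNG and HSPA1A fell by 0.47, 0.37, 0.71 and 0.28, and by 0.18, 0.02, 0.25 and 0.17 with GC offsets.

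The 6 largest falls in DDC cells at a mean log2 CPM of 3 or more were at regions with few annotated starts, and they stayed at -0.86 or lower with GC offsets. ENSG00000289615, a noncoding gene whose region is centred 2.71 kb from the start of CYP26B1 (a retinoic acid hydroxylase), had 3.45, 4.93 and 3.44 CPM in DDC cells, 12.7, 13 and 13.1 CPM in SLC6A4 cells and 8.24, 7.80 and 7.64 CPM in empty-vector cells. It fell by 1.70 (SE 0.11, adjusted p = 4.1e-27) and fell by 1.10 with GC offsets, and here the DDC libraries were the lowest of the 3 lines. LY6E, a GPI-anchored surface protein, had 19.4, 19 and 19.7 CPM in DDC cells, 64.1, 61.6 and 59.8 CPM in SLC6A4 cells and 22.7, 21.6 and 22.4 CPM in empty-vector cells. It fell by 1.67 (-1.07 with GC offsets), its SLC6A4 libraries were far above both other lines, and its RNA fell by 0.31 (adjusted p = 0.023). LRIG1, a negative regulator of EGF receptor signalling, and OVOL2, a zinc finger factor of epithelial cells, fell by 1.63 and 1.59 (-1.12 and -0.86 with GC offsets). LRIG1 RNA was too low to test, and OVOL2 RNA did not pass the test (log2 -0.11, adjusted p = 0.79). Input at LRIG1 was lower in DDC than in empty-vector cells (log2 -1.02, edgeR adjusted p = 0.031), at 4.54 to 7.51 CPM against 10.5 to 13.3 CPM. The LRIG1 region holds no listed H3K4me3 peak, and the part of the input in its fall was not tested.

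At CYP1B1-AS1 and ACOXL the mark was low in DDC cells beside both other lines, and so was the RNA. CYP1B1-AS1, the noncoding gene antisense to the cytochrome P450 gene CYP1B1, had 14.3, 12.6 and 13.2 CPM in DDC cells, 38.2, 42.1 and 43.6 CPM in SLC6A4 cells and 46.2, 50.0 and 44.9 CPM in empty-vector cells at chr2:38069265-38077888. It fell by 1.63 (SE 0.059, adjusted p = 4.2e-44) and fell by 1.5 with GC offsets. Its RNA counted 2.08, 2.20 and 7.96 normalised reads in DDC cells, against 52.1, 38.1 and 48.8 in SLC6A4 cells and 57.6, 54.5 and 55.3 in empty-vector cells. RNA fell by 3.40 (limma adjusted p = 1.4e-07), with the strand setting of the RNA counts not given in the sources used here, so sense and antisense reads cannot be told apart. ACOXL, an acyl-CoA oxidase-like gene, had 3.57, 3.57 and 4.02 CPM in DDC cells, 10.8, 11.7 and 11.2 CPM in SLC6A4 cells and 23.1, 24.5 and 21 CPM in empty-vector cells. DDC libraries were lowest, SLC6A4 libraries in between and empty-vector libraries highest, with no overlap, and the mark fell by 1.61 (-1.44 with GC offsets) and the RNA by 2.86 (adjusted p = 0.00016). Input at ACOXL was 33.5 to 39.4 CPM in DDC cells, above the mark, and its region holds no listed H3K4me3 peak. At CYP1B1-AS1 input was 63.0 to 78.3 CPM in DDC cells, also above the mark. Of regions named before, input in DDC cells exceeded the mark at LY6E (35.2 to 48.3 CPM) and ENSG00000289615 (8.66 to 15.9 CPM). It also did so at the region near EPC1 (80.9 to 100 CPM), but at the EPC1 promoter region it was below the mark (337 to 349 CPM).

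ST14, LAD1 and KRT7, all genes of epithelial cells, had less RNA and less of the mark in DDC cells, with and without GC offsets. Not all epithelial genes did: with GC offsets the luminal list that holds ST14 and KRT7 had 6 of 14 regions lower and 4 higher. The basal and hemidesmosome list that holds LAD1 had 7 of 8 lower and 0 higher. Of all promoter regions, 49.7% were called lower and 19.9% higher with GC offsets. ST14 encodes matriptase, a serine protease of the epithelial cell surface, and its region chr11:130159798-130161873 had 2.32, 1.90 and 2.56 CPM in DDC cells, 9.0, 8.19 and 8.27 CPM in SLC6A4 cells and 9.05, 9.54 and 9.52 CPM in empty-vector cells. The DDC libraries alone were low. ST14 fell by 1.91 (SE 0.13, adjusted p = 3.9e-24) and fell by 1.36 with GC offsets, and its RNA fell by 2.52 (adjusted p = 6.2e-09), at 8.31, 13.2 and 11.9 normalised reads in DDC cells against 76.3, 72.6 and 55.8 in SLC6A4 cells. LAD1, ladinin of the anchoring filaments, had 6.95, 7.90 and 7.68 CPM in DDC cells, 19.5, 19.1 and 18 CPM in SLC6A4 cells and 24.3, 23 and 25.7 CPM in empty-vector cells at chr1:201397318-201400029. Both other lines stood well above DDC. Input there was 47.7 to 61.8 CPM in DDC cells, above the mark. LAD1 fell by 1.33 (adjusted p = 7e-28) and fell by 0.77 with GC offsets, and its RNA fell by 3.72 (adjusted p = 1.3e-09). KRT7, a simple-epithelium keratin, had 11.7, 12.4 and 12.4 CPM in DDC cells, 26, 25.7 and 25.8 CPM in SLC6A4 cells and 19.7, 20.9 and 21.4 CPM in empty-vector cells, and fell by 1.09 (-0.52 with GC offsets), and its RNA fell by 1.04 (adjusted p = 1.4e-08).

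THBS1 and EFEMP1, which encode secreted matrix proteins, and TGM2, the serotonylating enzyme, were lower in the mark and in RNA as well. THBS1, the matrix glycoprotein thrombospondin 1, had 40.7, 40.7 and 40.4 CPM in DDC cells, 66.1, 65.1 and 69.2 CPM in SLC6A4 cells and 62, 58.4 and 62.5 CPM in empty-vector cells. It fell by 0.72 (-0.53 with GC offsets), and its RNA fell by 2.58 to 269, 242 and 262 normalised reads in DDC cells, against 1515, 1549 and 1575 in SLC6A4 cells. EFEMP1, a fibulin, had 4.22, 3.86 and 3.51 CPM in DDC cells and 8.74, 8.83 and 7.11 CPM in SLC6A4 cells, and fell by 1.07 (-0.77 with GC offsets), and its RNA fell by 2.45 (adjusted p = 3.3e-07). TGM2, at chr20:38161312-38165881, had 24.3, 25.3 and 28.4 CPM in DDC cells, 49.4, 47.7 and 48.5 CPM in SLC6A4 cells and 43.5, 41.5 and 41.7 CPM in empty-vector cells. The DDC libraries lay below both other lines, SLC6A4 above the empty vector, without overlap. TGM2 fell by 0.91 (SE 0.047, adjusted p = 1.5e-32) and fell by 0.65 with GC offsets, and its RNA fell by 1.22 (adjusted p = 2.2e-08), at 15168, 16066 and 10671 normalised reads in DDC cells against 31721, 32473 and 31693 in SLC6A4 cells. ADCY1, an adenylate cyclase chosen after its values were seen, fell by 1.30 (-1.21 with GC offsets), and its RNA by 1.06 (adjusted p = 0.016).

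HEPHL1 and HEY1 were the opposite case, higher in DDC cells for mark and RNA. HEPHL1, a copper-dependent ferroxidase of the hephaestin family, had 18.3, 18.4 and 17 CPM in DDC cells, 7.35, 7.96 and 7.44 CPM in SLC6A4 cells and 19.3, 17.4 and 18.9 CPM in empty-vector cells at chr11:94021170-94024452. DDC and empty-vector libraries overlapped and the SLC6A4 libraries were low. HEPHL1 rose by 1.24 (SE 0.08, adjusted p = 2.7e-26), by 0.97 with GC offsets, and its RNA rose by 1.63 (adjusted p = 2e-06). HEY1, a transcriptional repressor downstream of Notch, had 175, 174 and 176 CPM in DDC cells, 136, 138 and 135 CPM in SLC6A4 cells and 158, 161 and 157 CPM in empty-vector cells. It rose by 0.36, by 0.50 with GC offsets, and its RNA by 1.60 (adjusted p = 2.1e-05). RELN, the extracellular glycoprotein reelin, was named after its values were seen. It had 27.1, 28.9 and 28.9 CPM in DDC cells, 17.7, 16.6 and 16.9 CPM in SLC6A4 cells and 14.7, 16.4 and 14.7 CPM in empty-vector cells, a rise of 0.73 (0.85 with GC offsets) with an RNA value of -0.09 that did not pass the test (adjusted p = 0.90). Input in DDC cells was above the mark at HEPHL1 (30.1 to 42.2 CPM) and RELN (41.6 to 50.2 CPM), and at THBS1 (68.1 to 80.3 CPM).

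**Figure D2:**
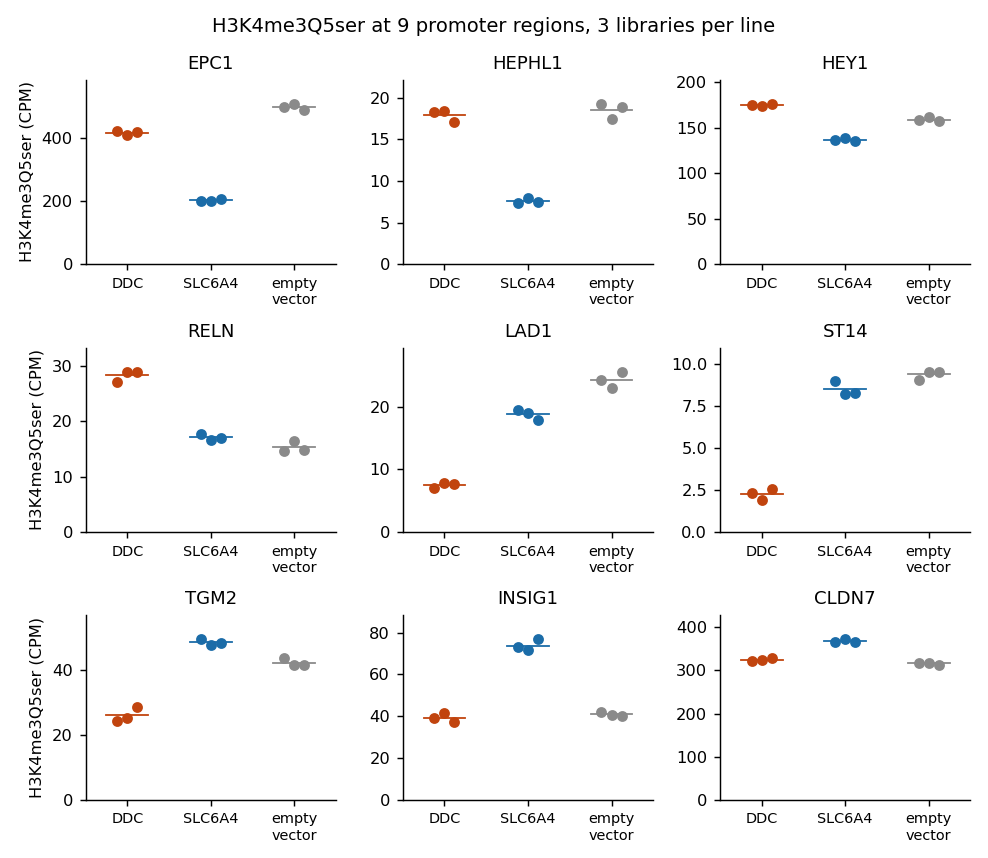
H3K4me3Q5ser in counts per M (vertical axes, from 0) at 9 promoter regions in DDC, SLC6A4 and empty-vector cells. Points are the 3 libraries of a line and bars their mean. DDC libraries lie above SLC6A4 libraries at EPC1, HEPHL1, HEY1 and RELN and below them at LAD1, ST14, TGM2, INSIG1 and CLDN7, and at ST14 the DDC libraries (1.90 to 2.56 CPM) are low beside both other lines.

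Other genes differed strongly in RNA with little difference in the mark or with one of the other sign. The metallothioneins MT1X and MT2A, which bind zinc and copper, were higher in DDC cells by 2.51 and 1.58 in RNA (adjusted p = 5.1e-15 and 2.9e-11), whereas their regions did not pass the test (log2 0.01, adjusted p = 0.94, and 0.02, adjusted p = 0.67). MT1X carried 12, 11.7 and 9.5 CPM in DDC cells, 10.3, 12 and 11 CPM in SLC6A4 cells and 9.33, 11.1 and 10.1 CPM in empty-vector cells, with all lines overlapping. With GC offsets MT1X had 0.37 (adjusted p = 8e-05) and MT2A 0.09 (adjusted p = 0.025). MT1F, another metallothionein, was higher by 1.87 in RNA (adjusted p = 1.6e-09), while its mark fell by 0.63 (adjusted p = 3.2e-06) and had -0.05 with GC offsets (adjusted p = 0.73). MSMP, a microseminoprotein whose region also holds the starts of RGP1 and GBA2, had an RNA rise of 2.90 and a mark difference of -0.07 (0.10 with GC offsets). CLDN7, a tight junction claudin in a domain of 36678 bp with GABARAP, ELP5 and others, had 14.5, 8.80 and 10.9 normalised reads in DDC cells against 70.7, 88.9 and 58.8 in SLC6A4 cells. Its domain had 321, 325 and 329.9 CPM in DDC cells, 365, 372 and 366 CPM in SLC6A4 cells and 318, 318 and 314 CPM in empty-vector cells, a log2 value of -0.18 that turned to 0.12 with GC offsets. FSIP1 had less RNA in DDC cells (log2 -2.38) and more mark (0.24, but -0.05 with GC offsets), and CXCL3, a neutrophil chemokine, had more RNA (1.30) and a mark value of 0.09 that turned to -0.40.

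Over all 9628 genes with a tested RNA and a promoter region, the log2 fold changes of RNA and H3K4me3Q5ser had a correlation of 0.002, and of 0.199 with GC offsets. Those genes share the libraries, and RNA itself had a correlation of 0.125 with the GC content of the region. RNA was called in 1789 of 13544 genes (13.2%), 876 higher in DDC cells (6.47%) and 913 lower (6.74%). Of the 82 genes with RNA at least 2-fold lower in DDC cells, 62 had a lower mark (75.6%, against 52.0% of all 9628) and 11 a higher one, with a median of -0.38 against -0.09. With GC offsets 58 were lower (70.7%, against 54.3%), with a median of -0.30 against -0.09. Of the 49 genes with RNA at least 2-fold higher, 15 had a higher mark (30.6%, against 31.4% of all), and with GC offsets 19 (38.8%, against 18.9%), with medians of -0.17 and 0.01.

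**Figure D3:**
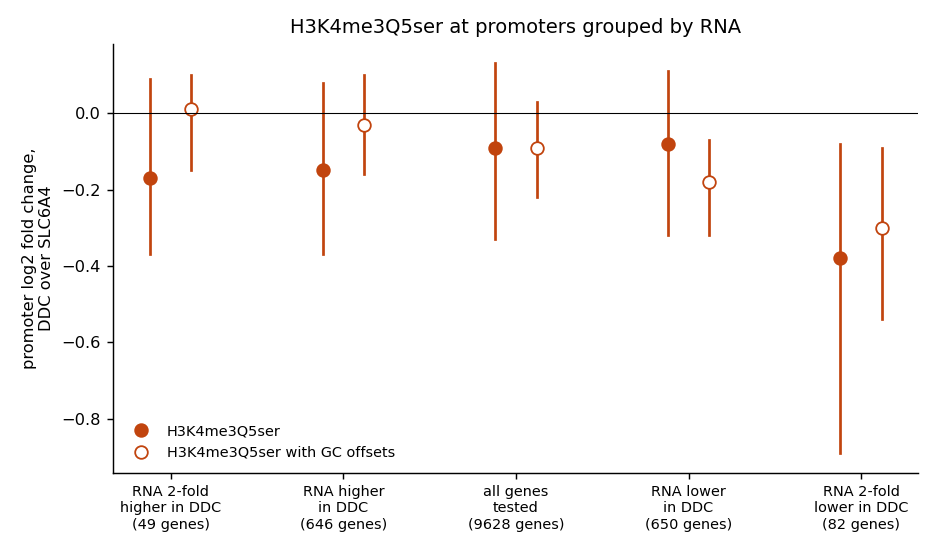
H3K4me3Q5ser log2 fold change of promoter regions, DDC over SLC6A4 (vertical axis), for genes grouped by their RNA call (horizontal axis). Points are medians and lines the quartiles, filled for the plain fit and open with GC offsets. The lowest median of the plain fit, -0.38, is that of the 82 genes with RNA at least 2-fold lower in DDC cells, and with GC offsets the medians run from 0.01 for RNA 2-fold higher to -0.30 for RNA 2-fold lower.

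Gene lists were read against all 10114 promoter regions, of which 3003 were called higher (29.7%) and 5215 lower (51.6%) in DDC cells, with a median of -0.10, and with GC offsets 2009 higher (19.9%) and 5024 lower (49.7%), with a median of -0.081. The list of cholesterol synthesis, which includes sterol regulators, stood lower in DDC cells in the mark and in the RNA. Of its 23 regions 17 were called lower and 2 higher, with a median of -0.28, and with GC offsets 20 were lower and 2 higher, with a median of -0.26. RNA was lower for 16 of 23 genes and higher for 0. INSIG1, which holds the sterol sensor complex in the endoplasmic reticulum, had 38.9, 41.5 and 37.4 CPM in DDC cells, 73.0, 71.4 and 76.7 CPM in SLC6A4 cells and 42.1, 40.4 and 40.1 CPM in empty-vector cells. DDC and empty-vector libraries overlapped and SLC6A4 was the high line. INSIG1 fell by 0.90 (-0.66 with GC offsets) and its RNA by 1.05. SQLE, squalene epoxidase, fell by 0.38 (-0.71) with an RNA value of -0.94. FDPS, farnesyl diphosphate synthase, had -0.23 and, with GC offsets, 0.03, in a domain shared with RUSC1 and PKLR.

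Promoters of cytosolic ribosomal proteins were also mostly called lower, while most of their RNAs did not pass the test. Of 35 regions 29 were called lower and 3 higher, with a median of -0.30, and with GC offsets 33 were lower and 1 higher, with a median of -0.24. Their RNA was higher for 4 and lower for 3 of 36 genes. RPS2, with many neighbours in 31590 bp, had 205, 208 and 205 CPM in DDC cells, 359, 358 and 355 CPM in SLC6A4 cells and 184, 179.9 and 180.1 CPM in empty-vector cells, and fell by 0.79 (-0.23 with GC offsets). G1/S and DNA replication genes had 16 of 20 regions lower and 3 higher, with a median of -0.22 (17 lower, 1 higher and -0.19 with GC offsets), and 3 of 20 RNAs lower. RRM2, a ribonucleotide reductase subunit, fell by 0.49 (-0.39), and its RNA fell by 0.69.

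Luminal epithelial and adhesion genes had the lowest median of the lists shown in the plain fit, -0.43 over 14 regions, 13 of them called lower and 1 higher. With GC offsets it was -0.044, with 6 lower and 4 higher, so that the list as a whole did not keep its place. ST14, KRT7 and ESRP1 were among the members that stayed lower, and the list's ESRP1 region, chr8:94638636-94641708, had -0.65 with GC offsets. The domain of CLDN7 (0.12 with GC offsets) was among the 4 called higher. A second region at the start of ESRP1, an epithelial splicing regulator, is not the list's member and was named after its values were seen. It had 5.88, 5.17 and 6.51 CPM in DDC cells, 12, 13.7 and 12.6 CPM in SLC6A4 cells and 20.4, 19 and 21 CPM in empty-vector cells at chr8:94641854-94643817, and fell by 1.14 (-0.97 with GC offsets), and its RNA fell by 2.00 (adjusted p = 0.0046). Input there was 32.3 to 35.8 CPM in DDC cells, above the mark. CDH1, E-cadherin, also named after its values were seen, had -0.72 and, with GC offsets, -0.05. AP-1 and early growth response genes also lost their place, with 13 of 16 regions lower and 1 higher at a median of -0.30, and 6 lower and 5 higher at 0.034 with GC offsets. MYC, FOSL1 and FOSL2 fell by 0.49, 0.64 and 0.49 (-0.35, -0.25 and -0.20 with GC offsets).

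HOX regions and ID or TGF-beta targets changed side. The 15 HOX regions had 9 called lower and 3 higher at a median of -0.20, and 3 lower and 8 higher at 0.091 with GC offsets. The broad HOXA domain around HOXA10, 65552 bp, had 1011, 971 and 979 CPM in DDC cells, 1129, 1129.9 and 1142 CPM in SLC6A4 cells and 1095, 1084 and 1105 CPM in empty-vector cells, a log2 value of -0.20 that turned to 0.09. The 12 regions of ID factors and TGF-beta or BMP targets had 8 lower and 4 higher at -0.17, and 3 lower and 5 higher at 0.11 with GC offsets. PMEPA1, an inhibitor of TGF-beta signalling in this list, fell by 0.71 (-0.33 with GC offsets) with RNA lower (-0.83). Interferon response genes had 7 of 17 regions lower and 8 higher at 0.032.

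Neuroendocrine markers had few marked promoters. Of 22 genes in the list 8 had a region, among which 4 were called lower and 2 higher, with a median of -0.11 (1 lower, 3 higher and -0.015 with GC offsets). SYT1, a synaptic vesicle calcium sensor, had 72.9, 78.6 and 76.2 CPM in DDC cells, 44.8, 48.5 and 47.7 CPM in SLC6A4 cells and 65.7, 68.2 and 66.4 CPM in empty-vector cells, and rose by 0.69 (0.25 with GC offsets). Its RNA did not pass the test (0.75, adjusted p = 0.22). ONECUT2, a homeodomain factor, fell by 0.66 (-0.16), and FOXA2 had -0.40 and, with GC offsets, -0.01. Of 19 genes for serotonin and other monoamines 4 had a region, and HTR1D, a serotonin receptor with RNA near 0 in every line, fell by 1.12 (-0.42). Among transglutaminases and the H3K4 methylation machinery 11 of 16 regions were lower and 2 higher (8 lower and 3 higher with GC offsets). WDR5, the core subunit shared by H3K4 methyltransferase complexes, fell by 0.87 (-0.50), and its RNA did not pass the test (-0.08, adjusted p = 0.84).

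**Figure D4:**
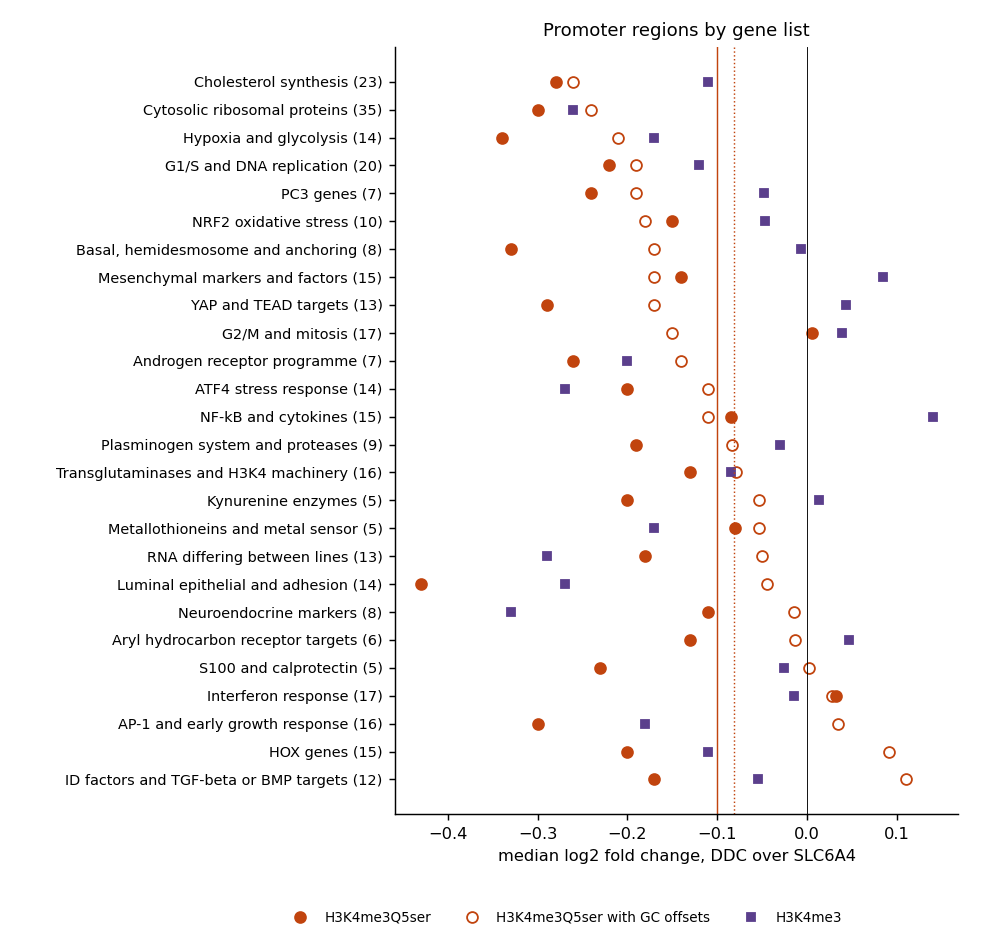
Median log2 fold change, DDC over SLC6A4 (horizontal axis), of the promoter regions of gene lists with 5 or more regions (vertical axis, number of regions in brackets). Filled circles are H3K4me3Q5ser, open circles H3K4me3Q5ser with GC offsets and squares H3K4me3, and the coloured lines mark -0.10 and -0.081, the H3K4me3Q5ser medians of all promoter regions without and with GC offsets. Cholesterol synthesis and cytosolic ribosomal proteins lie left of both lines, while the luminal, AP-1 and HOX lists lie left only before GC offsets.

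The serotonylated mark was then set against H3K4me3 in the same lines. H3K4me3 was called in 11399 of 18848 regions (60.5%), 5580 higher in DDC cells (29.6%) and 5819 lower (30.9%), and its log2 fold changes had a correlation of 0.831 with those of H3K4me3Q5ser over 18848 regions. The difference between the marks was tested as an interaction of mark and line. It was called in 3051 of 19515 regions (15.6%), with H3K4me3Q5ser relatively higher in DDC cells in 1048 (5.37%) and relatively lower in 2003 (10.3%). The interaction had a correlation of -0.028 with GC content over 19456 regions, but it ran with the level of a region. Its median was 0.16 in the lowest of 8 bins of mean level and -0.06 in the highest. By length it was 0.16 in the bin of the shortest regions and -0.04 in that of the longest. At promoters 410 of 10111 were relatively higher (4.05%) and 1532 relatively lower (15.2%). Promoters had a median level of 5.99 log2 CPM, against 4.66 over all tested regions, and the part of level in these counts was not tested.

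Zinc finger genes of chromosome 19 formed a group on the higher side, noticed in the values. Of 175 promoter regions of ZNF genes there, 113 were relatively higher by the interaction (64.6%) and 0 relatively lower, with a median interaction of 0.30. These 175 promoters had a median H3K4me3 difference of -0.37 beside an H3K4me3Q5ser difference of -0.04. Of 547 other promoters of chromosome 19, 31 were relatively higher and 22 lower, with a median of 0.02. Of 200 ZNF promoters on other chromosomes, 10 were relatively higher and 24 lower, with a median of -0.02, at -0.13 for both marks. ZNF665, a KRAB zinc finger gene at chr19:53189822-53193797, had 18.5, 18.2 and 18.4 CPM of H3K4me3Q5ser in DDC cells, 12.9, 13.1 and 13 CPM in SLC6A4 cells and 10.5, 9.95 and 10.7 CPM in empty-vector cells. Its H3K4me3 had 31.6, 28.3 and 27.6 CPM in DDC cells, 49.7, 52.8 and 46.3 CPM in SLC6A4 cells and 21.8, 17.8 and 18.8 CPM in empty-vector cells. The marks moved apart, with a rise of 0.50 for H3K4me3Q5ser (0.65 with GC offsets) and a fall of 0.76 for H3K4me3, and the interaction was 1.27 (SE 0.11, adjusted p = 9.1e-21). ZNF85 rose by 0.84 (0.79 with GC offsets) and had an interaction of 0.98 (adjusted p = 9.7e-10), at 19.3, 17.5 and 17.5 CPM of H3K4me3Q5ser in DDC cells against 9.92, 10.3 and 10.2 CPM in SLC6A4 cells. Input at ZNF665 was higher in DDC than in empty-vector cells (log2 0.64, edgeR adjusted p = 0.0031), at 41.4 to 42.3 CPM against 24.5 to 28.4 CPM. At ZNF85 input was 13.6 to 19.4 CPM against 12.7 to 18.6 CPM (log2 0.07, adjusted p = 0.92). Neither region holds a listed H3K4me3 peak. ZNF genes are near-identical in parts, and the counts shared multiple hits fractionally. The part of this, or of the input, in the difference was not tested.

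**Figure D5:**
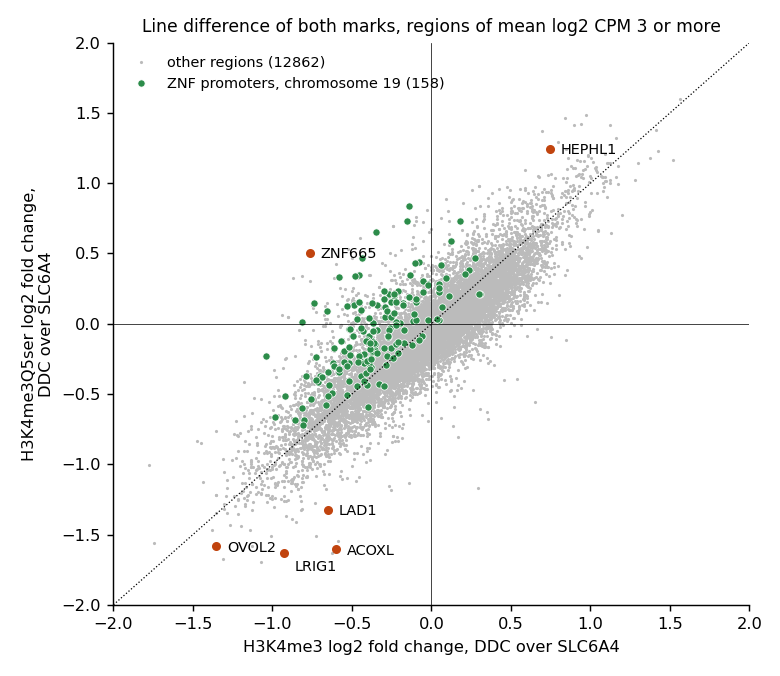
Log2 fold change of H3K4me3Q5ser (vertical axis) against that of H3K4me3 (horizontal axis), DDC over SLC6A4, for 13020 regions of mean log2 CPM 3 or more. Green points are 158 ZNF promoters of chromosome 19, of which 146 lie above the dotted line of equal change, and red points are named genes. HEPHL1 and ZNF665 lie above the line, and LAD1, ACOXL, LRIG1 and OVOL2 below it.

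On the lower side stood most YAP and TEAD targets and most NF-kB and cytokine genes, along with members of many other lists. YAP and TEAD targets had 10 of 13 regions relatively lower in H3K4me3Q5ser and 0 higher, against 15.2% and 4.05% of all promoters, and their plain medians were -0.29 for H3K4me3Q5ser and 0.043 for H3K4me3. AJUBA and AMOTL2, both partners of the Hippo pathway, fell by 0.49 and 0.64 (-0.24 and -0.17 with GC offsets) and had interactions of -0.21 and -0.39, and THBS1 had one of -0.30. NF-kB and cytokine genes had 9 of 15 regions relatively lower and 0 higher, with medians of -0.085 and 0.14. IL6 had 13.4, 12.7 and 13.1 CPM of H3K4me3Q5ser in DDC cells, 22.9, 22.7 and 23.2 CPM in SLC6A4 cells and 23.4, 23.2 and 22.9 CPM in empty-vector cells, with DDC alone low. It fell by 0.81 (-0.83 with GC offsets), its interaction was -0.59 (adjusted p = 1.6e-05) and its RNA fell by 0.64 (adjusted p = 0.041), in a region shared with STEAP1B. Among the other lists, basal and hemidesmosome genes had 5 of 8 regions relatively lower, the PC3 genes 4 of 7, mesenchymal genes 8 of 15, AP-1 genes 8 of 16, hypoxia and glycolysis genes 7 of 14 and cholesterol genes 8 of 23. Of these lists the mesenchymal genes had 1 region relatively higher and the others 0. VIM, vimentin, had an H3K4me3Q5ser fall of 0.45 (0.42 with GC offsets) with an H3K4me3 value of 0.04 that did not pass the test (adjusted p = 0.61) and an interaction of -0.49 (adjusted p = 4.6e-08).

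The most negative interactions of single regions were chosen after their values were seen. A region centred 978 kb from the start of CDH2, chr18:29155414-29157218, had 4.64, 5.76 and 4.97 CPM in DDC cells, 11.4, 11.9 and 11.3 CPM in SLC6A4 cells and 14.7, 14.2 and 13.8 CPM in empty-vector cells. It fell by 1.17 (-1.83 with GC offsets) while H3K4me3 there rose by 0.29 (adjusted p = 0.013), and its interaction was -1.45 (adjusted p = 3.7e-16). Input at this region was lower in DDC than in empty-vector cells (log2 -0.7, edgeR adjusted p = 0.0089). In DDC cells the input, at 13.6 to 21.6 CPM, was above the mark. The part of the input in these differences was not tested. The region at the start of the noncoding gene LINC01303 fell by 0.55 (-0.77 with GC offsets), while H3K4me3 there rose by 0.65 (adjusted p = 3.9e-13), and its interaction was -1.20 (adjusted p = 4.5e-17). CYP1B1-AS1, ACOXL, ST14 and ESRP1 had interactions of -1.0, -1.0, -1.01 and -0.99, so the fitted fall was larger for the serotonylated mark. H3K4me3 fell by 0.62, 0.60 and 0.89 at the first 3 and had -0.14 at ESRP1 (adjusted p = 0.16). LAD1 and TGM2 had interactions of -0.67 and -0.50. In DDC cells the CPM of H3K4me3 lay below those of input at CYP1B1-AS1, ACOXL and LAD1. At ST14, ESRP1 and TGM2 they overlapped. The part of such background in these interactions was not tested. With GC offsets, the largest fall among regions of mean log2 CPM 3 or more was at chrX:145877292-145881713, centred 61.7 kb from the start of SLITRK2, with 7.91, 8.44 and 8.33 CPM in DDC cells against 22.5, 23.7 and 23.9 CPM in SLC6A4 cells and 26.3, 26.4 and 26.9 CPM in empty-vector cells. It fell by 1.51 and fell by 2.06 with GC offsets.

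Set beside the empty vector, which the following values share, the regions named above fell into distinct patterns in the plain fit. No GC offsets were used for these values, and H3K4me3Q5ser of SLC6A4 over empty-vector cells had a correlation of 0.689 with GC content. EPC1 had -0.26 in DDC cells and -1.30 in SLC6A4 cells, ADGRF1 -0.01 and -0.98, and HEPHL1 -0.05 and -1.28, so the SLC6A4 line was the one further from the empty vector. The regions of EPC1, ADGRF1 and HEPHL1 hold 35.9%, 38.5% and 42.2% GC. LY6E had -0.20 in DDC cells and 1.48 in SLC6A4 cells, INSIG1 -0.05 and 0.86, and the VPS28 domain 0.14 and 0.72, again with SLC6A4 as the line further away. The LY6E region and the VPS28 domain hold 62.1% and 60.6% GC, and the part of the GC gradient in these patterns was not tested. ST14 had -2.06 in DDC cells and -0.14 in SLC6A4 cells, LAD1 -1.70 and -0.37, CYP1B1-AS1 -1.81 and -0.18, TGM2 -0.71 and 0.20, IL6 -0.82 and -0.01, and RELN 0.89 and 0.16, with DDC as the line further away. ACOXL was low in both, at -2.63 in DDC cells and -1.02 in SLC6A4 cells. By chromosome, the median DDC over SLC6A4 change ran from -0.38 on chromosome 22 to 0.22 on chromosomes 6 and 12, leaving out chromosome Y, and with GC offsets from -0.14 on chromosome 22 to 0.16 on chromosome 12.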

How the data were processed

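H3K4me3Q5ser and H3K4me3 ChIP libraries and inputs of PC3 cells were counted by the authors over 19535 regions. Its values are estimated counts of read pairs, made by the authors with featureCounts 2.0.3 on duplicate-free alignments with multiple and overlapping hits shared as fractions, per the file headers, which also show a strand setting beside regions that carry no strand. The reference was GRCh38, and Bowtie2 and MACS2 are named for chromatin data, per the submitters' processing notes; how the regions were merged is not given in the sources used here. Of the cells of the H3K4me3Q5ser columns 11.2% to 14.8% were not whole, and all were rounded. The deposited RNA tables hold a signal per gene, reads divided by DESeq2 size factors after HISAT2 2.1.0 alignment, per the file headers and the submitters' processing notes; the design had allowed for counts. Within 1e-06, every such value was a whole number of steps of its library, so the 3 lines could be put on 1 scale through the recovered reads.

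Regions were tested in edgeR 4.0.16 (R 4.3.3), by its quasi-likelihood F-test, with TMM scaling, edgeR's filter on low counts and Benjamini-Hochberg adjustment over all regions tested, at a threshold of 0.05, two-sided. CPM values were computed from the rounded counts with TMM scaling. RNA was tested with limma 3.58.1 on log2(normalised value + 1) for genes of at least 10 in 3 libraries, a scale that understates changes of low genes; edgeR on the recovered reads called 1812 genes. DESeq2 1.42.0 and other scalings were alternatives. GC offsets came from a loess curve (span 0.3) of each library on the GC content of a region; 55 regions had no GC value.

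Starts came from GENCODE 44, and a promoter region reaches within 1000 bp of a protein-coding start; 8290 of 10114 matched RefSeq by symbol. Python 3.11.15 with numpy 2.4.6, pandas 2.3.3 and matplotlib 3.10.9 made tables and figures. The scripts were tested on simulated data.

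The comparison, its members and the 28 gene lists were chosen with earlier results of these data known. Regions were picked by rule: the 10 promoters with the smallest adjusted p in each direction, the 6 largest folds in each direction at a mean log2 CPM of 3 or more, the 3 distal regions with the smallest adjusted p in each direction, up to 3 promoters a list, TGM2 and genes whose RNA differed between the lines. Not every region so picked is named above. Of the 6 largest rises only the region near EPC1 is named, and the distal regions with the smallest adjusted p are not. DDC and SLC6A4 have no promoter region in the table. Regions with the largest changes under GC offsets or by the interaction were added after their values were seen.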

Additional observations from a re-analysis of the deposited data

Results flagged for a closer look

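The line difference of H3K4me3Q5ser and that of H3K4me3 were tested against each other by the interaction of mark and line, and 3051 regions differed between the marks past the threshold. H3K4me3Q5ser was relatively higher in DDC cells in 1048 of them and relatively lower in 2003. ZNF promoters of chromosome 19 made up 113 of the relatively higher regions. H3K4me3 libraries held fewer read pairs (3.75 to 5.81 M) than H3K4me3Q5ser libraries (13.5 to 24.8 M), and the part of this difference in depth, or of the antibody, in the interaction was not tested.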

How the results depend on the processing

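The 71 regions named in the text kept their call, and those called kept their direction, in each of the 6 fits that left out a library. The same held without the filter, with all 9 libraries, with fractional counts cut down to the whole number below, with a replicate block and with SLC6A4 libraries 1 and 2 as one, and for the 70 to which DESeq2 gave an adjusted p. Under library-size scaling MSMP was no longer called (log2 -0.02) and the other 70 kept both. With abundance offsets 70 kept both, and MT2A, not called without offsets, was called at 0.12. Counts without GC offsets lay between 13509 (DESeq2) and 15110 (library-size scaling). Leaving out 1 library gave 14394 to 14617 regions called, 7081 to 7215 higher and 7313 to 7402 lower in DDC cells, 1043 to 1107 at 2-fold, 10513 to 10720 for H3K4me3, 2328 to 2567 for the interaction and 1242 to 1666 RNAs.

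With GC offsets, chosen after seeing the data, 198 regions reached 2-fold, and 261 with offsets on GC content and mean level, where 3290 were higher. Regions that turned round had, under GC offsets and under both offsets, values of -0.01 and -0.01 (TOGARAM1), -0.12 and -0.18 (NRP1), 0.10 and 0.12 (MSMP), 0.12 and 0.13 (CLDN7), -0.05 and -0.04 (FSIP1), 0.03 and 0.04 (FDPS), -0.40 and -0.37 (CXCL3), 0.09 and 0.04 (HOXA10), and for FOXA2 -0.01 and 0.01. These offsets remove any difference that runs with GC, whatever its cause, which was not tested. The replicate numbers did not pair the libraries (same-number correlations of -0.0353, -0.052 and -0.175), and a replicate block gave 14919 regions called. The comparison of inputs and of H3K4me3Q5ser relative to input between the lines was not run, since the counts over regions hold no columns of SLC6A4 input.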

Other observations

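Among 13021 regions of mean log2 CPM 3 or more, 1 had libraries of a line over 5 times apart. It lies near PRL, at chr6:22287271-22287634 (364 bp), and was named after its values were seen. Its H3K4me3Q5ser was 28.2, 27.3 and 1.02 CPM in DDC libraries 1 to 3, against 0.720, 0.552 and 20.6 CPM in SLC6A4 libraries 1 to 3, and its H3K4me3 in SLC6A4 cells was 3.54, 2.78 and 90.3 CPM. The third library of each line differed from the others there, in opposite directions, and the fitted log2 fold change of 1.32 was 0.85, 0.77 and 4.96 without SLC6A4 library 1, 2 or 3.

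Read per length, the median H3K4me3Q5ser over tested regions was 6.20 to 6.24 CPM per kb in DDC libraries and 6.57 to 6.6 CPM per kb in SLC6A4 libraries. Regions holding a CUT&Tag peak that the deposited list names as up (1935 regions, from a list of 2163 peaks) had 28.7% called higher and 54.0% lower in DDC cells, with a median of -0.09, and -0.11 with GC offsets. The other 17592 regions had 39.0% called higher and 37.1% lower, with a median of 0.02, and -0.01 with GC offsets. With offsets on GC content and mean level the medians of the sets with and without such a peak were -0.10 and -0.09. Regions with such a peak were longer (median 9463 bp, against 3270 bp), and their shares lay near those of all promoters (29.7% higher and 51.6% lower).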
